A study of Arabidopsis thaliana with 2 samples.

Results

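Arabidopsis thaliana adjusts to scarce phosphate through a small regulatory circuit. The MYB factor PHR1 switches on phosphate starvation genes by binding a short DNA motif called P1BS, and SPX proteins hold PHR1 back when phosphate is plentiful. The ubiquitin-conjugating enzyme PHO2 removes phosphate transporters, the microRNA miR399 cuts the PHO2 transcript, and the non-coding RNAs IPS1 and AT4 bind miR399 without being cut. Phosphate enters roots through PHT1 transporters, and MGD3 and SQD2 make galactolipid and sulfolipid that take the place of phospholipid. In this plant, H2A.Z placed by the ARP6-containing SWR1 complex has been linked to the control of genes of this response.

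The 10 genes described here are PHR1 (AT4G28610), PHO2 (AT2G33770), SPX1 (AT5G20150), SPX3 (AT2G45130), IPS1 (AT3G09922), AT4 (AT5G03545), PHT1;1 (AT5G43350), PHT1;4 (AT2G38940), MGD3 (AT2G11810) and SQD2 (AT5G01220). They were chosen by gene identifier, for their known roles, out of 33557 genes in the deposited tables, and all 10 were found in both libraries. Earlier results of these data were known when they were chosen. The data are RNA-seq of whole seedlings of the arp6-1 mutant in the Col-0 background. Seedlings were 10 days old, were raised at 17 °C under long days, and come from the 15 min point of the arm that stayed at 17 °C, with shifts begun 1 h into the light period. There is 1 group with 2 libraries, replicate 1 with 20249142 counts over genes and replicate 2 with 12410991. No wild type and no phosphate treatment was analysed here, so the values are levels in the mutant and differences between its duplicates. The labels do not say whether the duplicates came from separate cultures, so differences between them may be technical.

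ARP6 (AT3G33520), the mutated gene, had 7 counts in replicate 1 and 7 in replicate 2, each with an exact 95% Poisson interval of 2.81 to 14.4, or 0.339 and 0.560 TPM. TPM is a level per transcript length that sums to the same total in each library, used here as the authors deposited it. The ARP6 span overlaps AT3G33530 in the files, and the strand setting of the counting is not given, so its count is uncertain. None of the 10 genes overlaps another gene's span in the files.

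The sequences behind the miR399 branch are shown first, because they show how PHO2, IPS1 and AT4 are joined by a single microRNA family. The reference annotation (RefSeq, TAIR10.1) gives 6 mature miR399 guide strands with 5 different sequences, and they share 1 seed. The seed, bases 2 to 8 from the 5′ end, is in capitals.
miR399a: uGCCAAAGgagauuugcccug
miR399b and miR399c-3p: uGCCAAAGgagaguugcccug
miR399d: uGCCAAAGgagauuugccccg
miR399e: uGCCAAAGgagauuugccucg
miR399f: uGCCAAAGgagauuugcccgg

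The PHO2 transcript held 5 stretches of 21 bases that pair with miR399 along their whole length, with at most 1 mismatch each, and all 5 lie before the coding sequence. The first of them from the 5′ end, at chr2:14282106-14282126 on the minus strand of TAIR10.1, pairs with miR399a with 0 mismatches and 2 G:U pairs. The third, at chr2:14281884-14281904 on the minus strand, pairs with miR399f with 0 mismatches and 2 G:U pairs. IPS1 and AT4 each held 1 stretch of 24 bases that pairs with miR399b once 3 bases are left unpaired between miRNA bases 10 and 11. The IPS1 stretch lies at chr3:3051224-3051247 and the AT4 stretch at chr5:895149-895172, both on the plus strand. Each pairs with 1 mismatch and 2 G:U pairs, and 23 of their 24 bases are identical. The unpaired bases are in capitals.
PHO2, the first stretch: uagggcaaaucuucuuuggca
PHO2, the third stretch: uugggcaaaucuccuuuggca
IPS1: uugggcaacuuCUAuccuuuggca
AT4: uugggcaacuuCGAuccuuuggca

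The P1BS motif, written GNATATNC and the same on both strands, was searched in the 300 bases before each RefSeq gene start. It was found before 2 of the 10 genes, SPX3 and AT4, against 6.29% of 32809 nuclear genes. In the 1000 bases before the start it was found for 7 of the 10 genes, against 19.7% of nuclear genes. IPS1, PHT1;1, SPX3 and AT4 had 2 matches each in the longer window, PHO2, SPX1 and SQD2 had 1 each, and PHR1, PHT1;4 and MGD3 had none. Among the 55 other phosphate genes described further on, 32.7% had a match within 300 bases and 56.4% within 1000. The windows of SPX3 (chr2:18606110-18606409, plus strand) and AT4 (chr5:894282-894581, plus strand) are printed because they carry the motif, in capitals, and both genes were over 2-fold apart between the libraries. SPX1, IPS1 and PHT1;1 were also over 2-fold apart and had no match within 300 bases. In SPX3 the motif begins 213 and 90 bases before the start, and in AT4 26 bases before it. A match of letters is a description and does not show that PHR1 binds there.
SPX3: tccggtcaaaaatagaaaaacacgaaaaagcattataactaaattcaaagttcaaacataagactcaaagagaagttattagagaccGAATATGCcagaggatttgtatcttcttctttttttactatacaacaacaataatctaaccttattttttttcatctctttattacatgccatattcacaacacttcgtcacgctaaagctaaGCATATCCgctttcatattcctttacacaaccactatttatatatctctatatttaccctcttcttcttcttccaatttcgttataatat
AT4: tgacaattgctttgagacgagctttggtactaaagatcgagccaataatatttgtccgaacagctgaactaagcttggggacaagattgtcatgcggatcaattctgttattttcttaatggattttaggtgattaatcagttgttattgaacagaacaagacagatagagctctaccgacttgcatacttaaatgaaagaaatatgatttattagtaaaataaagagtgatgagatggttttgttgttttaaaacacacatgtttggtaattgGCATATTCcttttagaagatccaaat

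All 10 genes were transcribed in both libraries, over a wide range of levels. By the authors' TPM, AT4 was the most abundant of them in both libraries and SPX3 the least. With TPM computed from the counts and exon lengths of the reference annotation, SPX1 (126 TPM) and AT4 (125 TPM) changed places in replicate 1. From the highest mean TPM down, the order was AT4, SPX1, PHO2, SQD2, PHR1, PHT1;1, PHT1;4, IPS1, MGD3 and SPX3. The ranges of the 2 libraries overlapped between neighbours in this order, except between SQD2 and PHR1, between IPS1 and MGD3, and between MGD3 and SPX3. With computed TPM the order of the means was the same, but IPS1 and MGD3 overlapped and PHT1;4 and IPS1 did not. The median over the 10 genes of the mean log2(TPM + 1) was 5.10, against 4.11 over the 19519 genes that had at least 10 counts in both libraries. The medians within replicates 1 and 2 were 5.62 and 5.30, and the summed TPM of the 10 genes was 579 and 1071. By the authors' TPM, AT4, SPX1, MGD3 and SPX3 held the same rank among the 10 in both libraries, of which only SPX3 did so with computed TPM as well. PHT1;1 ranked 5 in replicate 1 and 8 in replicate 2 by both measures. The level of a gene in whole-seedling RNA depends both on how many cells express it and on how much RNA each makes, and these cannot be told apart.

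**Figure D1:**
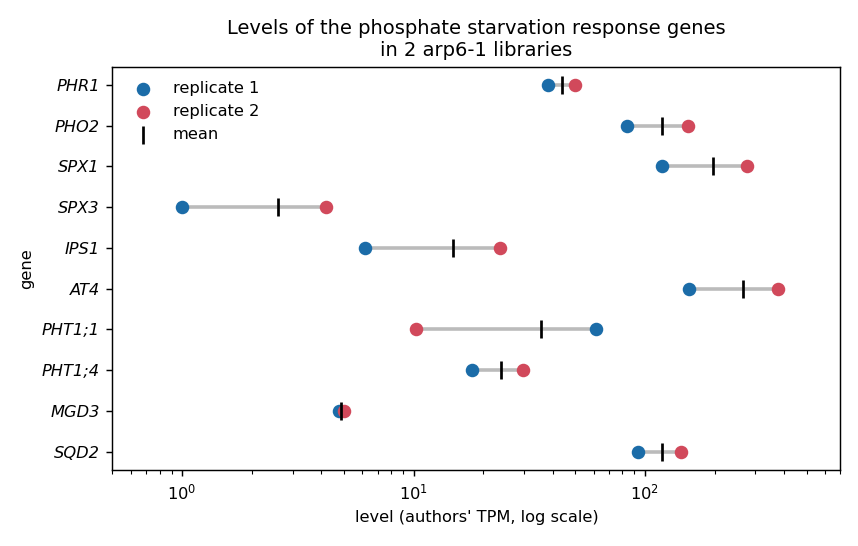
Levels of the 10 phosphate starvation response genes in arp6-1 seedlings at 17 °C. The x axis is the authors' TPM on a log scale, blue and red points are replicates 1 and 2, black ticks their mean, and grey lines join the libraries; PHT1;1 alone has its red point on the left, at 10.3 TPM against 61.2 TPM, and MGD3 has its points almost on top of each other.

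Between the duplicates, 9 of the 10 genes had the higher TPM in replicate 2, and PHT1;1 had the lower. Of all 19519 tested genes, 9490 had the higher TPM in replicate 2 and 9998 the lower. Differences are given on the log2 scale of counts scaled to effective library size, replicate 2 minus replicate 1, with 95% counting intervals. Each gene was tested with the two-sided exact binomial test on the counts, adjusted by Benjamini-Hochberg over all 19519 tested genes. This test covers counting error only and compares these libraries, not conditions. By it 8 of the 10 genes were higher in replicate 2 and 1 was lower, but so were 32.1% and 32.1% of all tested genes, 64.2% in all, so passing it sets no gene apart. By a rule of size, 4 of the 10 genes were over 2-fold higher in replicate 2 (SPX1, SPX3, IPS1 and AT4), against 8.76% of all tested genes. A single gene, PHT1;1, was over 2-fold lower, against 8.24%, and over 2-fold differences of either direction were seen in 5 of 10 genes against 17% of all tested genes. The median difference over the 10 genes was 0.79, against -0.0047 over all tested genes. With at least 50 counts required in both libraries, SPX3 and IPS1 drop out. Then 3 of 8 genes were over 2-fold apart, against 13.2% of all genes tested at that minimum.

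**Figure D2:**
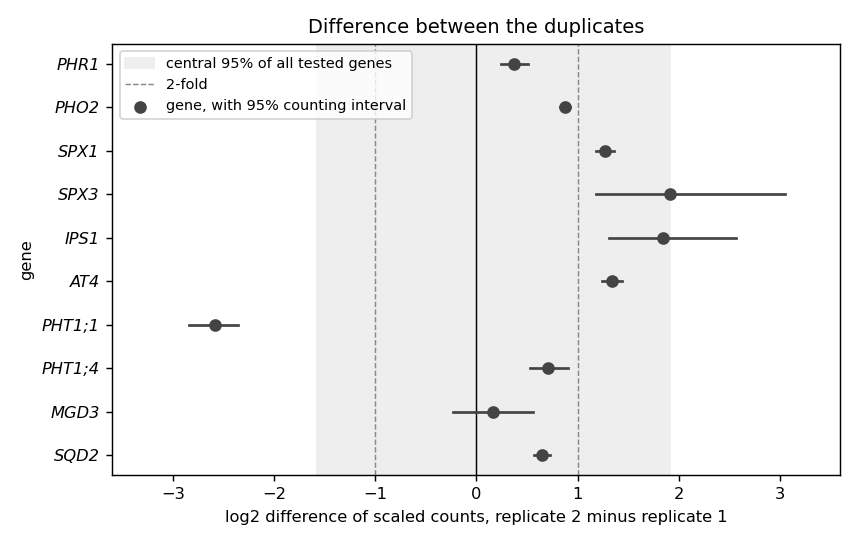
Difference between the duplicates for the 10 genes. The x axis is the log2 difference of scaled counts, replicate 2 minus replicate 1, bars are 95% counting intervals, dashed lines mark 2-fold and the grey band holds the central 95% of all 19519 tested genes (-1.57 to 1.91); PHT1;1 lies outside the band at -2.59, and SPX3 and IPS1 lie near its upper edge.

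PHR1, the MYB factor at the head of the response, is on chromosome 4 at 14132856 to 14135259 (TAIR10, minus strand). It had 1072 and 811 counts in replicates 1 and 2, or 38.0 and 49.7 TPM (43.9 ± 8.26, SD, n = 2), above 75.9% of tested genes. Its libraries were close together, with a difference of 0.37 (0.24 to 0.51, exact binomial test, adjusted p = 1.02e-07). Its close relative PHL1, which acts alongside PHR1, had 23.9 and 43.7 TPM and a difference of 0.86. PHR1 made up 61.4% of the summed TPM of this pair in replicate 1 and 53.2% in replicate 2. With TPM computed from counts, PHR1 had 50.4 and 63.6 and PHL1 18.8 and 33.3, so this share depends on how TPM is made.

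The SPX proteins bind PHR1 and sense phosphate status through inositol pyrophosphates. SPX1 (chromosome 5, 6802372 to 6803625, plus strand) had 1824 and 2569 counts, or 118.7 and 276 TPM (197 ± 111, SD, n = 2), above 95.03% of tested genes. Replicate 2 was higher by 1.27 (1.18 to 1.36, exact binomial test, adjusted p = 1.01e-183). SPX3 (chromosome 2, 18606410 to 18607853, plus strand) was scarce, with 15 and 37 counts, or 0.998 and 4.202 TPM (2.60 ± 2.27, SD, n = 2). Both genes were higher in replicate 2, SPX3 by 1.91 with a wide interval of 1.18 to 3.05 because of its low counts (exact binomial test, adjusted p = 2.04e-06). Within the family of 4 SPX genes, SPX1 held 70.9% and 79.9% of the summed TPM in replicates 1 and 2 and SPX3 only 0.596% and 1.22%. SPX2, whose coding sequence is 65.97% identical to that of SPX1, had 41.4 and 60.2 TPM (difference 0.56). SPX4 had 6.28 and 5.23 TPM and a difference of -0.35 that did not pass (exact binomial test, adjusted p = 0.171). SPX1 TPM was 3.12 times PHR1 TPM in replicate 1 and 5.55 times in replicate 2.

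In the miR399 branch, the target and both decoys were higher in replicate 2. PHO2 (chromosome 2, 14277558 to 14283040, minus strand) had 6024 and 6444 counts, or 83.9 and 153.5 TPM (118.7 ± 49.2, SD, n = 2), above 91.1% of tested genes. The difference was 0.87 (0.82 to 0.93, exact binomial test, adjusted p = 7.85e-247), under 2-fold. AT4 (chromosome 5, 894706 to 895400, plus strand) had 1399 and 2070 counts, or 154.8 and 376 TPM (265 ± 156, SD, n = 2), above 96.5% of tested genes. Its difference was 1.34 (1.24 to 1.44, exact binomial test, adjusted p = 1.65e-161). IPS1 (chromosome 3, 3050989 to 3051530, plus strand) had only 33 and 73 counts, or 6.16 and 23.6 TPM (14.9 ± 12.3, SD, n = 2). IPS1 was higher in replicate 2 by 1.85 (1.31 to 2.56, exact binomial test, adjusted p = 9.97e-11). The decoys stood at unlike levels. AT4 TPM was 25.1 times IPS1 TPM in replicate 1 and 15.9 times in replicate 2, although their miR399 stretches are nearly the same. Summed TPM of AT4 and IPS1 was 1.92 and 2.60 times that of PHO2 in replicates 1 and 2, but only 1.08 and 1.52 times with TPM computed from counts, so the size of this ratio depends on how TPM is made. The 6 miR399 precursor genes gave almost no counts: MIR399C had 0 and 2, MIR399D 0 and 1, and MIR399A, MIR399B, MIR399E and MIR399F 0 in both libraries. For a count of 0 the limit was set at 3 counts (3.69 by the exact interval used for ARP6). That limit is 0.148 CPM (counts scaled to library total) in replicate 1 and 0.242 CPM in replicate 2. In replicate 2 the exact 95% Poisson interval reached 7.22 counts for MIR399C and 5.57 for MIR399D. The mature microRNA was not measured.

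The high-affinity transporters PHT1;1 and PHT1;4 went opposite ways between the libraries. PHT1;1 (chromosome 5, 17399789 to 17401949, minus strand) is a main phosphate importer of roots. It had 1617 and 156 counts, or 61.2 and 10.3 TPM (35.7 ± 35.99, SD, n = 2), and was lower in replicate 2 by a difference of -2.59 (-2.84 to -2.36, exact binomial test, adjusted p = 2.78e-161). Only 0.292% of tested genes had a more negative difference. PHT1;4 (chromosome 2, 16257228 to 16260225, plus strand), which also takes up phosphate in roots, had 479 and 458 counts, or 17.9 and 29.7 TPM (23.8 ± 8.31, SD, n = 2). It was higher in replicate 2 by 0.71 (0.52 to 0.90, exact binomial test, adjusted p = 3.09e-13). PHT1;1 TPM was therefore 3.42 times PHT1;4 TPM in replicate 1 and 0.346 times in replicate 2.

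PHT1;2, a near copy of PHT1;1 on the same chromosome, differed in the same direction, with 452 and 55 counts, or 18.2 and 3.72 TPM (difference -2.23, interval -2.69 to -1.86). The coding sequences of PHT1;1 and PHT1;2 are 97.7% identical, so reads may be split between them, and their separate levels and differences are uncertain. PHT1;3, 89.7% identical to PHT1;1, had 0 counts in both libraries. The coding sequence of PHT1;4 is 69.99% identical to that of PHT1;1. Among the remaining family members, PHT1;7 had 10 and 33 counts (difference 2.24), PHT1;8 had 22 and 14 (difference 0.11) and PHT1;9 had 43 and 13 (difference -0.88). The last pair did not pass the exact binomial test, with adjusted p = 0.897 for PHT1;8 and 0.0573 for PHT1;9. PHT1;6 had 0 counts in both libraries. PHT1;5, which moves phosphate between organs, had 2 and 63 counts, a ratio of 54.0 with a 95% counting interval of 14.3 to 456. The summed TPM of the family was 100.1 in replicate 1 and 52.3 in replicate 2, and PHT1;5 held 0.0850% and 8.68% of it.

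**Figure D3:**
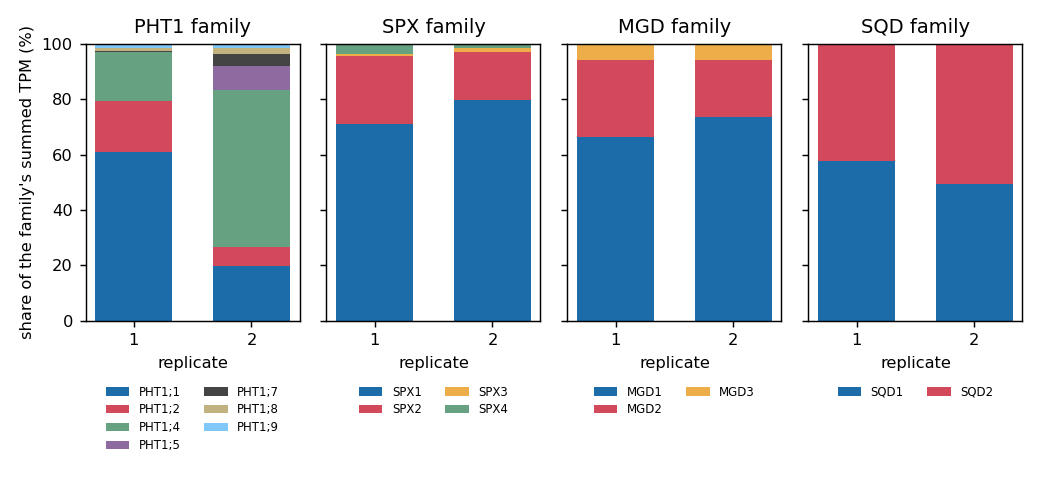
Makeup of 4 gene families in each library. Bars stack each gene's share, in percent, of the family's summed TPM in replicates 1 and 2; in the PHT1 family PHT1;1 holds 61.1% in replicate 1 and 19.6% in replicate 2 while PHT1;4 holds 17.9% and 56.7%, whereas the SPX, MGD and SQD families shift less.

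Both lipid-remodelling genes were within 2-fold between the libraries. MGD3 (chromosome 2, 4743322 to 4746780, plus strand), a starvation-type galactolipid synthase, had 136 and 89 counts, or 4.75 and 5.001 TPM (4.87 ± 0.181, SD, n = 2). Its difference of 0.16 did not pass the test (interval -0.24 to 0.56, exact binomial test, adjusted p = 0.481). SQD2 (chromosome 5, 86585 to 89986, minus strand), which makes sulfolipid, had 2837 and 2598 counts, or 93.1 and 143.5 TPM (118 ± 35.6, SD, n = 2), with a difference of 0.65 (0.57 to 0.73, exact binomial test, adjusted p = 7.86e-60). MGD3 was a minor part of its family, 5.86% and 5.62% of the summed TPM in replicates 1 and 2. MGD1, the housekeeping enzyme of the chloroplast, held 66.5% and 73.7% (53.8 and 65.6 TPM, difference 0.27), and MGD2 held 27.6% and 20.7% (22.4 and 18.4 TPM, difference -0.27). The coding sequence of MGD3 is 69.4% identical to that of MGD2 and 54.2% to that of MGD1. SQD2 and SQD1, which makes the sulfur-bearing sugar donor for sulfolipid, had a TPM ratio (SQD2 over SQD1) of 0.731 in replicate 1 and 1.02 in replicate 2. With TPM computed from counts the ratio was 0.627 and 0.885, so SQD2 was then below SQD1 in both libraries.

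A wider list of 55 phosphate genes was also chosen with earlier results of these data known, and 42 of them reached 10 counts in both libraries. Of these, 13 were over 2-fold higher in replicate 2, against 8.76% of all tested genes, and 2 were over 2-fold lower, against 8.24%, with 27 within 2-fold. These percentages are the background for each group of genes below. The median difference of the 42 was 0.33, and by the exact binomial test 26 were higher, 8 lower and 8 did not pass, where 32.1% of all tested genes were called in each direction and 64.2% in all. The 7 genes grouped as scavenging enzymes include the kinase gene PPCK1. Their median was 1.19, with 4 of 7 over 2-fold higher (8.76% of all tested genes). RNS1, a ribonuclease that is also induced by wounding, had 66 and 406 counts (difference 3.35), and PPCK1, a kinase of phosphoenolpyruvate carboxylase, had 556 and 1905 (difference 2.55). PS2, also in this group, had 1437 and 3051 counts, or 75.6 and 265 TPM (difference 1.86). PAP17, a purple acid phosphatase, had the highest mean of the list by the authors' TPM, with 168 and 384. The plastid transporter PHT2;1 was above it in replicate 1, with 322 TPM. With TPM computed from counts, PHT2;1 had 333 and 212 and PAP17 161 and 358, which puts the mean of PHT2;1 higher. The PAP17 span overlaps AT3G17800 in the files, so its count is uncertain. The phosphatase PAP10 was lower in replicate 2, with 64.6 and 39.96 TPM (difference -0.66, exact binomial test, adjusted p = 5.29e-24). The phosphatase PAP26 had 148.7 and 143.7 TPM (difference -0.02, which did not pass).

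Of the 8 tested lipid genes, 4 were over 2-fold higher in replicate 2 and 0 lower (8.76% and 8.24% of all tested genes), with a median of 1.03. PEPC1, a phosphatase acting on phosphoethanolamine and phosphocholine, had 144 and 400 counts (difference 2.23), and the phospholipase D gene PLDP2 had 205 and 501 (difference 2.05). The 11 tested transport genes were mixed, 3 over 2-fold higher and 1 lower, with a median of 0.11; the share lower is near the 8.24% of all tested genes. PHO1, which loads phosphate into the root xylem, had 72.1 and 48.2 TPM (difference -0.57), and PHT2;1 had 322 and 213 TPM (difference -0.61). Of 9 tested regulators 2 were over 2-fold higher and 1 lower (8.76% and 8.24% of all tested genes). The zinc finger factor ZAT6 had 510 and 1231 counts (difference 2.04), and HRS1, a repressor active in roots, had 168 and 44 (difference -1.13). None of the 3 inositol phosphate kinases and none of the 4 root growth genes was over 2-fold apart.

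Tissue and stress markers, also chosen with earlier results of these data known, moved between these libraries too. All 15 root markers had the lower TPM in replicate 2, and their summed TPM was 432 in replicate 1 and 132 in replicate 2. Of 12 tested, 7 were over 2-fold lower and 0 higher (8.24% and 8.76% of all tested genes), with differences from -2.67 (IRT1) to -0.24 (SCR) and a median of -1.47; none of the 15 was at 0 in both libraries. Of the 10 described genes 1, PHT1;1, had a difference below 0 and 9 had one above 0. Of the 42 other tested phosphate genes 11 were below 0 and 31 above, whether or not they passed the test. For all 19519 tested genes the median difference was -0.0047, with 9490 higher and 9998 lower in replicate 2 by TPM. Of the leaf photosynthesis genes 0 of 9 were over 2-fold apart, with a median of 0.03 (summed TPM 19115 and 19029), while genes of the chloroplast genome held 0.777% of counts in replicate 1 and 0.179% in replicate 2. The 9 abscisic acid and dehydration genes, partly picked for their differences between these same libraries, were all over 2-fold higher in replicate 2, with a summed TPM of 113 and 7561 and a median difference of 7.45. The part of root share, chloroplast RNA or a stress response in the values of the phosphate genes was not tested. The labels name a stranded and an unstranded library kit and a pair of sequencing centres without assigning them to libraries, so kit and centre cannot be told apart from replicate.

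**Figure D4:**
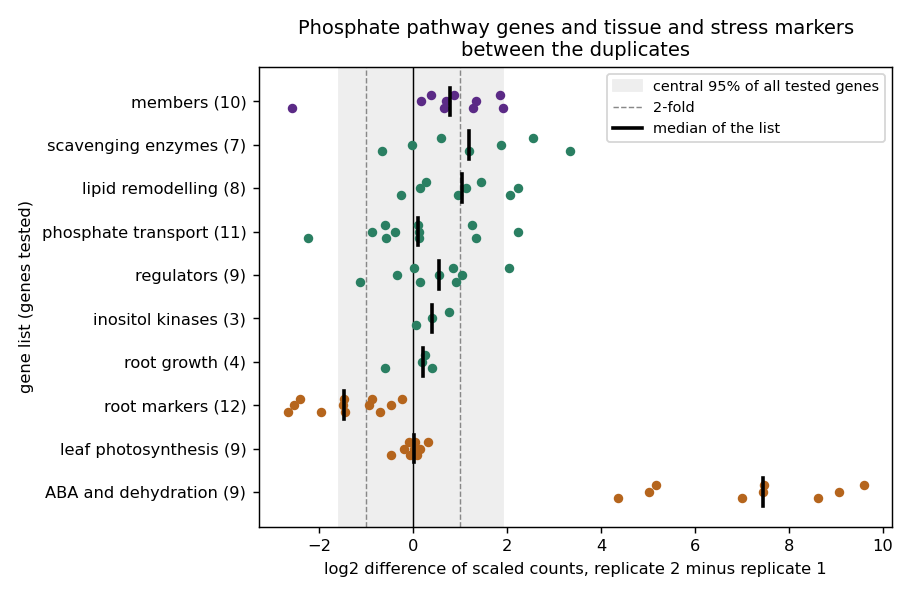
Differences between the duplicates by gene list. The x axis is the log2 difference of scaled counts, replicate 2 minus replicate 1; each point is a gene tested (purple the 10 described genes, green other phosphate genes by role, brown marker lists), black bars are list medians and the grey band holds the central 95% of all tested genes. Scavenging genes (with the kinase gene PPCK1 among them) and lipid genes have medians of 1.19 and 1.03, root markers -1.47 and the abscisic acid and dehydration genes 7.45. The abscisic acid and dehydration genes were partly picked for their differences between these same libraries.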

How the data were processed

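RNA-seq of 2 libraries of 1 group was used. Per the submitters' processing notes, FastQC, Trimmomatic, TopHat and Picard were used with the TAIR10 build. Not given in the sources used here: their roles and versions, the counting tool and its strandedness. The authors deposited raw counts per gene, FPKM (per the file headers, used only to check the TPM) and TPM, which equals their FPKM rescaled to a fixed sum in each library. Levels are the authors' TPM. Differences come from the counts of genes that reached 10 in each library. TMM factors (edgeR 4.0.16 under R 4.3.3) were 1.02 and 0.976, and the prior count was 2. With 1 library a side, the exact binomial test (scipy 1.17.1) took the place of edgeR's model. It was tested on simulated counts that held counting error only. That check cannot show how the test behaves on libraries that differ by more than counting error. Adjustment was by Benjamini-Hochberg over all tested genes, at 0.05. Intervals are Clopper-Pearson and cover counting error only, as does the limit of 3 counts for a count of 0. Alternatives were DESeq2 1.42.0 size factors, total counts, other count minimums, another prior count or pseudocount, and TPM computed from counts and exon lengths.

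File coordinates are printed 1-based, after 1 was added to each start. TAIR10.1 (RefSeq) gave sequences and annotation, and 32810 of 33557 IDs matched. Of the matched genes, 44.7% had the same start coordinate in both after 1 was added. AT4, for example, starts at 894582 in RefSeq and at 894706 in the files. The motif windows and distances therefore hold for the RefSeq starts only. The miR399 search allowed 0 or 3 unpaired bases and a score of up to 5, with mismatches counted as 1 and G:U pairs as 0.5. The genes, the wider list, the marker lists and the naming rule were chosen with earlier results of these data known. Examples are the most different genes in each direction, the most abundant genes and close relatives of the 10 genes. PAP10 and PAP26 were named outside this rule.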

Additional observations from a re-analysis of the deposited data

How the results depend on the processing

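All 68 recomputed differences of the 10 genes kept their direction, and those from counts kept their side of the test's threshold, under DESeq2 size factors, total counts over all or over nuclear genes, other count minimums, a prior count of 0.5 and the authors' TPM. The over 2-fold counts were 4 higher and 1 lower under each of these except a minimum of 50 counts. SPX3 and IPS1 are not tested there, which leaves 8 of the 10 genes. Of these, 3 were over 2-fold apart, against 13.2% of all genes tested at that minimum. Their median difference was 0.68, against 0.032 over all genes tested there. For the wider list the count over 2-fold apart ran from 12 of 42 with the authors' TPM to 19 of 47 with no filter, against 15 of 42 above. The shares of all tested genes were 13.5%, 20.7% and 17%, in that order. The median level of 5.10 became 5.34 with TPM computed from counts and lay between 5.30 and 5.62 when a replicate was left out; the cause was not tested. Computed from counts, the mean TPM of PHR1 (57.0), MGD3 (6.15) and PHO2 (167) lay above both of their libraries; for PHO2 the shift was within 1 SD. The ratio of AT4 and IPS1 to PHO2, recomputed after seeing the data, was 1.08 and 1.52 in replicates 1 and 2 instead of 1.92 and 2.60. No paired analysis was possible because there is only 1 group. No result met a rule for a closer look, since groups of 2 libraries are too small. Depth limits SPX3, IPS1 and MGD3 most, with counts of 15 to 136, and the miR399 precursors cannot be compared at this depth.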
